A study of Mus musculus with 8 samples.

Results

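The nuclear receptors are a family of transcription factors, many of which are switched by small fat-soluble ligands such as hormones, bile acids, oxysterols and fatty acids. A list of 36 mouse genes of this family was looked up by symbol among the 23699 loci of each expression file, and each of the 36 was found at 1 locus. Of these, 31 reached 1 FPKM or more in 2 or more of the 8 libraries and were tested. FPKM, the number of fragments per kilobase of a transcript after scaling to library size, divides by transcript length, so that levels of different genes are given per length. The members were Thra, Thrb, Rara, Rarb, Rarg, Ppara, Ppard, Pparg, Nr1d1, Nr1d2, Rora, Nr1h2, Nr1h3, Nr1h4, Vdr, Nr1i2, Nr1i3, Hnf4a, Rxra, Rxrb, Rxrg, Nr2c1, Nr2c2, Nr2f1, Nr2f2, Nr2f6, Esr1, Esrra, Esrrg, Nr3c1, Nr3c2, Nr4a1, Nr4a2, Nr5a2, Nr6a1 and Nr0b2.

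The livers came from male C57/BL6 mice at 8 weeks of age, in 4 groups of 2 libraries each of polyadenylated RNA. These were re-fed LMKO livers, re-fed control livers, fasted LMKO livers and fasted control livers. LMKO mice carry a liver knockout of Med23, which encodes 1 of the subunits of Mediator, a large complex between DNA-bound transcription factors and RNA polymerase II. Fasted mice had no food for 24 h, and re-fed mice were fasted for 24 h and then fed for 24 h. The sources used here do not give the alleles, the driver of the deletion or the genotype of the control mice beyond the word control.

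In the liver, nuclear receptors set large parts of metabolism. PPAR-alpha (Ppara) switches on fatty acid oxidation and ketone production in fasting, LXR-alpha (Nr1h3) responds to oxysterols and drives lipid synthesis and sterol export, FXR (Nr1h4) senses bile acids, and CAR (Nr1i3) and PXR (Nr1i2) sense foreign compounds. Most of these bind DNA as heterodimers with a retinoid X receptor (Rxra, Rxrb or Rxrg), while HNF4-alpha (Hnf4a) works as a homodimer and maintains hepatocyte identity. Mediator is one of the complexes through which receptors reach the polymerase, together with coactivators and corepressors.

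Med23, the targeted gene, had 1.61 and 1.75 FPKM in re-fed LMKO livers and 2.86 and 2.33 FPKM in re-fed control livers. It had 2.35 and 2.18 FPKM in fasted LMKO livers and 2.87 and 2.93 FPKM in fasted control livers. The LMKO libraries were lower in each state without overlap, but by limma the difference over both states did not pass (adjusted p = 0.173, log2 fold change -0.34, SE 0.0824). The FPKM covers the whole gene, and the deleted part is not named in the labels.

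Libraries held 10096 to 10403 loci at 1 FPKM or more, and the number of fragments behind them is unknown. Fasted and re-fed libraries carry different number prefixes in their deposited names, whose meaning is not given, and whatever the prefix stands for cannot be told apart from the feeding state. Across genes, the correlation of log2(FPKM + 1), relative to its mean over libraries, with log2 transcript length lay between 0.222 and 0.293 in the fasted libraries. It was -0.357 and -0.325 in the re-fed LMKO libraries, and -0.018 and -0.327 in the re-fed control libraries, where replicate 1 stood apart. Hepatocyte markers were present in every library except Alb, listed at 0 in all 8. Markers of pancreatic acinar cells summed to 0.753 FPKM at most. Muscle markers summed to 31.3 FPKM in re-fed control replicate 2 and to at most 1.22 FPKM in any other library. Adipocyte markers were also highest in re-fed control replicate 2, at 1.01 FPKM against at most 0.137 FPKM elsewhere. What this did to the values of that library was not tested. Summed markers of sinusoidal endothelium were 63.6 to 87.5 FPKM in re-fed LMKO livers, 79.8 to 89.9 in re-fed control livers, 144.4 to 156.9 in fasted LMKO livers and 113.7 to 116.2 in fasted control livers. Summed Kupffer cell markers were 45.5 to 68.6, 84.4 to 103.1, 107.8 to 140.8 and 100.1 to 121.4 FPKM in the same order of groups. Summed stellate cell markers were 58.7 to 76.4, 80.1 to 96.8, 113.1 to 126.4 and 103.7 to 111.9 FPKM in that order. Cholangiocyte markers were higher after re-feeding, at 28.4 to 31.3 and 32.8 to 35.03 FPKM in re-fed LMKO and control livers against 13.0 to 15.5 and 12.1 to 16.6 FPKM in fasted LMKO and control livers. The endothelial, stellate and cholangiocyte sums thus differed between the feeding states without overlap, in the same libraries as the receptors below. Kupffer cell sums overlapped between re-fed and fasted control livers. The part of these cell types in the results was not tested.

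The receptors of highest level were Hnf4a, Nr1i3, Rxra, Nr1h4, Nr1h3 and Ppara, the 6 with a mean over all libraries of at least 50 FPKM. Hnf4a had the highest mean, 152.8 FPKM, and lay between 116.6 and 199.5 FPKM. Nr1i3 followed with a mean of 115.6 FPKM, but its libraries ran from 44.7 to 199.1 FPKM and overlapped those of each of the other 5. A total of 16 receptors averaged at least 10 FPKM, which took in PXR (Nr1i2), both REV-ERB genes (Nr1d1 and Nr1d2), SHP (Nr0b2), the glucocorticoid receptor (Nr3c1) and Rxrb. Levels of neighbours in this order overlapped between libraries throughout, as the plot of all libraries shows.

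**Figure D1:**
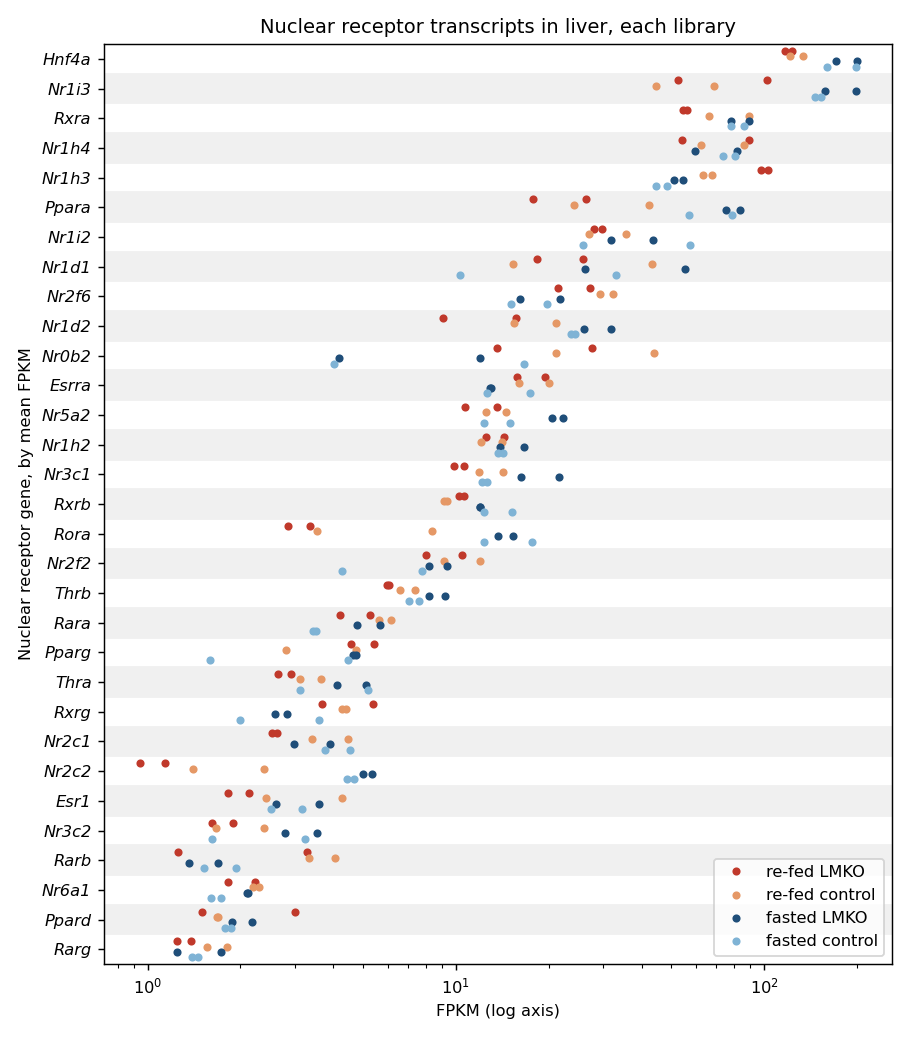
FPKM (log axis) of the 31 nuclear receptor genes that passed the filter, ordered by mean over the 8 libraries; each point is 1 library, coloured by group. Hnf4a lies highest, between 116.6 and 199.5 FPKM, and Nr1i3, Ppara, Rora and Nr2c2 show re-fed libraries to the left of fasted ones.

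Summed over the 36 members, the family's transcripts came to 623.1 and 718.9 FPKM in re-fed LMKO livers and 748.5 and 665.8 FPKM in re-fed control livers. The sum was 1006 and 868.0 FPKM in fasted LMKO livers and 814.5 and 886.1 FPKM in fasted control livers. All re-fed libraries lay below all fasted ones. This sum follows the few abundant receptors, and in whole liver, fewer cells of a type and less RNA per cell cannot be told apart.

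The response to re-feeding was widespread in the liver as a whole, and the receptors took part in it with more falls than rises. Over both genotypes, 15 of the 31 receptors passed the test (limma adjusted p under 0.05), 4 higher and 11 lower in re-fed livers. Of all 10865 loci, 53.1% passed, 32.4% higher and 20.6% lower, so the share of receptors that passed was near that of all loci. The median log2 fold change was -0.16 over the receptors and 0.10 over all loci. Without re-fed control replicate 1 that receptor median was -0.26 (0.09 over all loci), and without fasted LMKO replicate 1 it was -0.11 (0.11). With median-ratio scaling it was -0.27 (0.005 over all loci) and with quantile normalization -0.30 (0.002). With the trend on transcript length removed it was -0.13 (0.09 over all loci). Over the 21 receptors kept at a minimum of 5 FPKM it was -0.33, beside 0.17 over all loci kept. In LMKO mice 11 receptors passed, 1 higher and 10 lower, against 39.5% of all loci, 23.2% higher and 16.3% lower. In control mice 8 passed, 3 higher and 5 lower, against 33.2% of all loci, 22.8% higher and 10.5% lower. Without overlap between the 4 re-fed and the 4 fasted libraries were 9 receptors, 2 higher and 7 lower, against 45.9% of all loci, 28.5% higher and 17.4% lower. The count over both genotypes was 9 without either re-fed LMKO replicate 2 or re-fed control replicate 2. In controls it was 1 without re-fed control replicate 2 or without fasted control replicate 2 and 5 without re-fed control replicate 1, and in LMKO mice it was 6 or 7 without any 1 of the 4 LMKO libraries. With quantile normalization the control count was 7, 1 higher and 6 lower. With the trend on transcript length removed, the median over the receptors in controls was 0.10, against -0.06 in the fit reported.

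Nr1h3, Nr1i3, Nr2c2, Ppara and Rora passed in LMKO mice and in control mice. Nr1h3 was higher after re-feeding and the other 4 were lower. The 2 genotypes share no library, but both tests came from 1 fit of all 8 libraries with a shared estimate of the spread. With only the 4 control libraries fitted, the control calls of Nr1h3, Ppara and Rora were lost. Promoter sequence is shown for these 5 receptors because they passed in each genotype in the fit reported. It is taken from RefSeq (build GRCm38.p6), 300 bases from 250 before to 50 after an annotated start, on the gene's strand, and where several windows exist 1 is given. Capitals mark matches on either strand to the E-box CACGTG, the CCAAT box CCAAT and the GC box GGGCGG, and other bases are in lower case.
Nr1h3, chr2:91194986-91195285, minus strand: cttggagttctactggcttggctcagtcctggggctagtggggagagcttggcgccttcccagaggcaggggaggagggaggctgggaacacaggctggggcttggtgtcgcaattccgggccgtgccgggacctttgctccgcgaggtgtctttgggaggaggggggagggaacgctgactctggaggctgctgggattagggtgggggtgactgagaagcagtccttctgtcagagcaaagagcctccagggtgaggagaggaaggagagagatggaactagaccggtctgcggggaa
Nr1i3, chr1:171213720-171214019, plus strand: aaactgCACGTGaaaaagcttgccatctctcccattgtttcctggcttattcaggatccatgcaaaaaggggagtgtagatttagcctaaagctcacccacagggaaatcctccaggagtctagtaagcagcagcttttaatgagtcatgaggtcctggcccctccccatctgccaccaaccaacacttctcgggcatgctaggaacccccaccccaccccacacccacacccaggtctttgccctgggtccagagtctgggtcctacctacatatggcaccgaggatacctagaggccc
Nr2c2, chr6:92092183-92092482, plus strand: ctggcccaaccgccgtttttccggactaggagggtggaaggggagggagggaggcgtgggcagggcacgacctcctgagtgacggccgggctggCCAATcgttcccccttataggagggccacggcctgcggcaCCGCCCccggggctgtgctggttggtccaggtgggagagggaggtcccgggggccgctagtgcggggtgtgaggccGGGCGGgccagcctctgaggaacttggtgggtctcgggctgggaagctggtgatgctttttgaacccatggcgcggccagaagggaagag
Ppara, chr15:85735526-85735825, plus strand: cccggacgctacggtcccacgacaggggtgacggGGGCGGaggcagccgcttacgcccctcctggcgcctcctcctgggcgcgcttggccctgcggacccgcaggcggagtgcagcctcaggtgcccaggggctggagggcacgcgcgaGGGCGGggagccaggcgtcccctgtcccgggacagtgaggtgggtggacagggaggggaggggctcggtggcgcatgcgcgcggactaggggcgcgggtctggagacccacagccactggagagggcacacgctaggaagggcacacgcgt
Rora, chr9:68653536-68653835, plus strand: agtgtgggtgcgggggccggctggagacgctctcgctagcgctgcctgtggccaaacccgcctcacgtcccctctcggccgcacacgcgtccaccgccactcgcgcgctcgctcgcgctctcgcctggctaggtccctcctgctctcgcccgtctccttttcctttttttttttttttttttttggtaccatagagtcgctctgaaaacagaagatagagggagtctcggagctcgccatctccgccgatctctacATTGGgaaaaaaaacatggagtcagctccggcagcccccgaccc

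The Ppara window holds 2 matches to the GC box and the Nr2c2 window holds 2, 1 on each strand, while the Nr1i3 window carries the E-box near its upstream end. No match to these motifs, to TATAAA or to the receptor motif AGGTCA is in the Nr1h3 window shown. Windows were found for 34 of the 36 members, 53 in all, with a median GC content of 59.3% against 52.7% over 32851 promoters. AGGTCA was in 20.8% of the members' windows and 16.3% of all, CACGTG in 9.43% and 7.15%, CCAAT in 34.0% and 37.4%, GGGCGG in 47.2% and 35.7%, and TATAAA in 11.3% and 13.6%. A match is a run of letters and not a measured binding site.

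Nr1h3 encodes LXR-alpha, a receptor for oxysterols, at chromosome 2, 91024218 to 91035273 on mm9. It had 97.8 and 103.0 FPKM in re-fed LMKO livers, 67.9 and 63.6 FPKM in re-fed control livers, 54.4 and 51.0 FPKM in fasted LMKO livers and 44.5 and 48.4 FPKM in fasted control livers. Every re-fed library lay above every fasted one, and the re-fed LMKO libraries were the highest of all. Over both genotypes it rose by 0.70 (log2) (SE 0.0791, limma adjusted p = 0.00074). It was 0.92 in LMKO mice (adjusted p = 0.00235) and 0.49 in control mice (adjusted p = 0.0186), where the call was lost without any 1 of the 4 control libraries (adjusted p up to 0.0705). Both values were past the test on their own, and the difference between them did not pass (interaction 0.43, SE 0.158, adjusted p = 0.507).

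Ppara lies at chromosome 15, 85565994 to 85637281 on mm9. It had 17.8 and 26.5 FPKM in re-fed LMKO livers, 42.1 and 24.2 FPKM in re-fed control livers, 83.2 and 75.2 FPKM in fasted LMKO livers and 57.1 and 78.4 FPKM in fasted control livers. All re-fed libraries lay below all fasted ones, with re-fed control replicate 1 nearest to them. The log2 fold change was -1.43 over both genotypes (SE 0.215, limma adjusted p = 0.00211), -1.82 in LMKO mice (adjusted p = 0.00566) and -1.04 in control mice (adjusted p = 0.0398). The call in controls was lost without re-fed control replicate 2, either fasted control library or either fasted LMKO library (adjusted p up to 0.176).

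The other members of the lipid and bile acid sensing class did not pass over both genotypes. Nr1h4, the bile acid receptor FXR, had 54.3 and 89.6 FPKM in re-fed LMKO livers, 85.9 and 62.6 FPKM in re-fed control livers, 81.8 and 59.5 FPKM in fasted LMKO livers and 80.3 and 73.6 FPKM in fasted control livers. Its groups overlapped completely, and the log2 fold change was -0.03 (SE 0.199, adjusted p = 0.902). Nr1h2 (LXR-beta), which unlike LXR-alpha is broadly expressed, stayed between 12.1 and 16.6 FPKM in all libraries (log2 fold change -0.13, SE 0.0972, adjusted p = 0.298). Pparg lay between 1.59 and 5.43 FPKM and Ppard between 1.503 and 3.003 FPKM, each with overlapping groups.

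**Figure D2:**
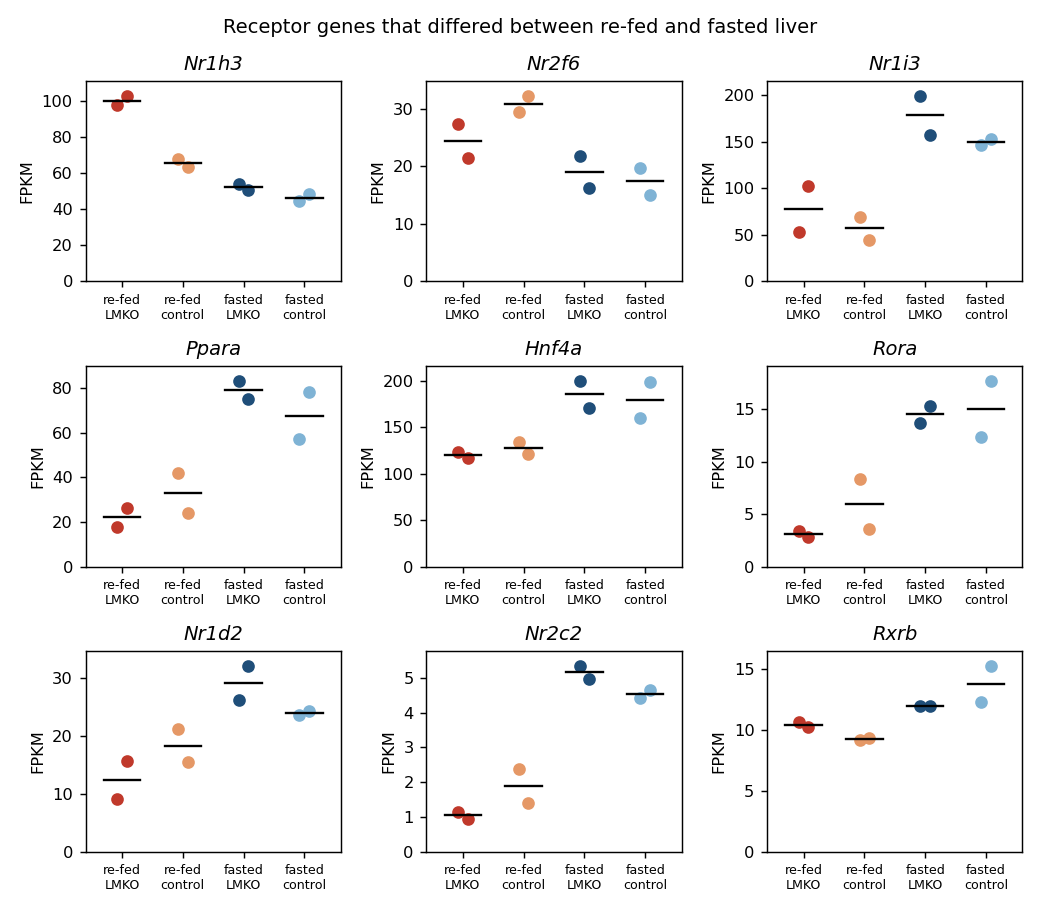
FPKM of 9 receptor genes in each library (points, 2 per group) with the group mean (line); each vertical axis starts at 0. The genes are those that passed the re-feeding test over both genotypes also with the trend on transcript length removed. Nr1h3 and Nr2f6 have higher means in re-fed livers, and the other 7 have lower means.

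Of the foreign-compound sensors, Nr1i3 (CAR) at chromosome 1, 173144101 to 173148976 on mm9 fell after re-feeding. It had 52.7 and 102.0 FPKM in re-fed LMKO livers, 69.0 and 44.7 FPKM in re-fed control livers, 199.1 and 157.3 FPKM in fasted LMKO livers and 146.7 and 153.2 FPKM in fasted control livers. The highest re-fed library was still below the lowest fasted one. The log2 fold change was -1.34 over both genotypes (SE 0.237, limma adjusted p = 0.00377), -1.26 in LMKO mice (adjusted p = 0.0252) and -1.42 in control mice (adjusted p = 0.0207). Within LMKO mice the call was lost without fasted LMKO replicate 1 or 2 or re-fed LMKO replicate 1 (adjusted p up to 0.114). Within control mice it was lost without re-fed control replicate 2 or either fasted control library (adjusted p up to 0.104). Nr1i2 (PXR) had 28.0 and 29.8 FPKM in re-fed LMKO livers, 35.5 and 27.0 FPKM in re-fed control livers, 31.7 and 43.6 FPKM in fasted LMKO livers and 25.9 and 57.6 FPKM in fasted control livers. The 2 fasted control libraries of Nr1i2 spanned every other library, and its log2 fold change of -0.33 did not pass (SE 0.255, adjusted p = 0.303).

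Among the clock receptors, Rora and Nr1d2 fell and Nr1d1 did not pass. Rora encodes ROR-alpha, which activates clock and lipid genes, and spans chromosome 9, 68501609 to 69226835 on mm9. It had 3.36 and 2.86 FPKM in re-fed LMKO livers, 8.34 and 3.55 FPKM in re-fed control livers, 13.7 and 15.4 FPKM in fasted LMKO livers and 12.3 and 17.7 FPKM in fasted control livers. The groups of the 2 feeding states did not overlap. The log2 fold change was -1.60 over both genotypes (SE 0.235, adjusted p = 0.00192), -1.92 in LMKO mice (adjusted p = 0.00628) and -1.28 in control mice (adjusted p = 0.0278), where it was lost without re-fed or fasted control replicate 2 (adjusted p up to 0.132).

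Nr1d2 (REV-ERB-beta), a repressor of the clock, had 9.05 and 15.6 FPKM in re-fed LMKO livers, 21.1 and 15.4 FPKM in re-fed control livers, 26.1 and 32.0 FPKM in fasted LMKO livers and 23.6 and 24.2 FPKM in fasted control livers. All re-fed libraries were lower than all fasted ones, and the log2 fold change was -0.80 (SE 0.184, limma adjusted p = 0.0106). Its paralog Nr1d1 (REV-ERB-alpha) had 18.3 and 25.9 FPKM in re-fed LMKO livers, 15.3 and 43.3 FPKM in re-fed control livers, 55.3 and 26.2 FPKM in fasted LMKO livers and 33.1 and 10.3 FPKM in fasted control livers. The libraries of each group were far apart, and the log2 fold change of -0.16 did not pass (SE 0.475, adjusted p = 0.79). The labels give no time of day at which livers were taken. Nr1d1 and Thra lie on opposite strands and overlap by 1075 bases in a reference annotation of another build. The mm9 loci listed here do not overlap, with Thra at chromosome 11, 98603187 to 98626425 and Nr1d1 at 98629249 to 98636556. Whether reads were assigned by strand is not given. Whether reads of 1 gene entered the value of the other was not tested, so the values of both remain uncertain.

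The shared dimer partners moved by small amounts and not in 1 direction. Rxrb had 10.6 and 10.3 FPKM in re-fed LMKO livers, 9.14 and 9.39 FPKM in re-fed control livers, 11.95 and 11.99 FPKM in fasted LMKO livers and 12.3 and 15.2 FPKM in fasted control livers. All re-fed libraries were below all fasted ones, with a log2 fold change of -0.35 (SE 0.0878, limma adjusted p = 0.0145). The call was lost without re-fed LMKO replicate 2 (adjusted p = 0.0512). Rxra, the main retinoid X receptor of liver, had 56.3 and 54.6 FPKM in re-fed LMKO livers, 89.1 and 66.5 FPKM in re-fed control livers, 89.3 and 77.8 FPKM in fasted LMKO livers and 85.8 and 78.3 FPKM in fasted control livers. Only the re-fed LMKO libraries and re-fed control replicate 2 lay below the fasted range. Its log2 fold change of -0.33 passed narrowly (SE 0.116, adjusted p = 0.0474), and among the fits that leave out 1 library the call was kept only without re-fed control replicate 1 (adjusted p up to 0.13 in the others).

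Rxrg had 3.67 and 5.40 FPKM in re-fed LMKO livers, 4.41 and 4.26 FPKM in re-fed control livers, 2.82 and 2.58 FPKM in fasted LMKO livers and 3.599 and 1.988 FPKM in fasted control livers. The re-fed libraries all lay above the fasted ones, with fasted control replicate 1 close to the lowest re-fed library. Its log2 fold change was 0.54 (SE 0.164, limma adjusted p = 0.0288), and the call was kept only without re-fed LMKO replicate 1 or fasted control replicate 1 (adjusted p up to 0.0859 in the others).

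Among the liver identity and orphan receptors, Nr2c2, Hnf4a and Nr5a2 fell and Nr2f6 rose, while Esrra, Nr2f2, Nr2c1 and Nr6a1 did not pass. Nr2c2 encodes the orphan receptor TR4, at chromosome 6, 92041412 to 92123052 on mm9, and had the smallest p of the family. It had 1.14 and 0.945 FPKM in re-fed LMKO livers, 2.378 and 1.404 FPKM in re-fed control livers, 5.33 and 4.98 FPKM in fasted LMKO livers and 4.42 and 4.66 FPKM in fasted control livers. The feeding states were widely apart, and fasted libraries varied little. On the log2 scale the change was -1.28 over both genotypes (SE 0.121, limma adjusted p = 0.000441), -1.59 in LMKO mice (adjusted p = 0.00173) and -0.96 in control mice (adjusted p = 0.00893). On the log2(FPKM + 1) scale used, the change of a gene at this low level is understated. With the trend on transcript length removed, the change over both genotypes was smaller, at -0.97 (SE 0.0957).

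Hnf4a had 123.0 and 116.6 FPKM in re-fed LMKO livers, 133.8 and 120.9 FPKM in re-fed control livers, 199.5 and 170.7 FPKM in fasted LMKO livers and 159.7 and 198.3 FPKM in fasted control livers. The re-fed libraries were all lower than the fasted ones (log2 fold change -0.55, SE 0.108, limma adjusted p = 0.00548). It passed in LMKO mice (-0.62, adjusted p = 0.0193) and lay at the threshold in control mice (-0.48, adjusted p = 0.05). Nr2f6 (EAR2), an orphan receptor of the COUP-TF group that mostly represses, had 27.3 and 21.5 FPKM in re-fed LMKO livers, 29.4 and 32.2 FPKM in re-fed control livers, 21.7 and 16.2 FPKM in fasted LMKO livers and 19.7 and 15.1 FPKM in fasted control livers. Its re-fed control libraries were clear of all fasted ones, and re-fed LMKO replicate 2 was not. The log2 fold change was 0.58 (SE 0.143, adjusted p = 0.014), and the call was lost with quantile normalization (adjusted p = 0.0911).

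Nr5a2 (LRH-1), which promotes bile acid synthesis genes, had 10.7 and 13.6 FPKM in re-fed LMKO livers, 14.5 and 12.5 FPKM in re-fed control livers, 22.3 and 20.5 FPKM in fasted LMKO livers and 15.0 and 12.4 FPKM in fasted control livers. Only the fasted LMKO libraries stood above the rest. Over both genotypes the log2 fold change was -0.40 (SE 0.114, limma adjusted p = 0.0242), with -0.78 in LMKO mice (adjusted p = 0.0109) and -0.01 in control mice (adjusted p = 0.955). The call over both was lost without re-fed LMKO replicate 1, re-fed control replicate 2, fasted LMKO replicate 1 or fasted control replicate 1 (adjusted p up to 0.0772). Esrra, which drives mitochondrial genes, lay between 15.8 and 20.1 FPKM in re-fed livers and between 12.7 and 17.4 FPKM in fasted livers (log2 fold change 0.33, SE 0.134, adjusted p = 0.0733).

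Nr0b2 encodes SHP, a receptor without a DNA-binding domain that represses other receptors and is itself induced through FXR. It had 27.7 and 13.6 FPKM in re-fed LMKO livers, 21.1 and 44.0 FPKM in re-fed control livers, 12 and 4.17 FPKM in fasted LMKO livers and 4.02 and 16.6 FPKM in fasted control livers. The libraries of each group were far apart, and the highest fasted library lay above the lowest re-fed one. Over both genotypes the log2 fold change of 1.53 passed narrowly (SE 0.516, limma adjusted p = 0.0425) and passed in neither genotype alone. Among the fits that leave out 1 library, the call was kept only without fasted LMKO replicate 1 or fasted control replicate 2 (adjusted p up to 0.13 in the others).

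Of the hormone and vitamin receptors, the glucocorticoid receptor Nr3c1 and the thyroid hormone receptor Thrb fell over both genotypes. Nr3c1 had 10.7 and 9.86 FPKM in re-fed LMKO livers, 14.2 and 11.9 FPKM in re-fed control livers, 16.2 and 21.6 FPKM in fasted LMKO livers and 12.6 and 12.2 FPKM in fasted control livers. The re-fed and fasted control libraries of Nr3c1 overlapped, and the LMKO libraries did not. Its log2 fold change was -0.37 over both genotypes (SE 0.114, limma adjusted p = 0.0304), -0.81 in LMKO mice (adjusted p = 0.00965) and 0.07 in control mice (adjusted p = 0.777). Thrb had 6.07 and 5.97 FPKM in re-fed LMKO livers, 7.38 and 6.60 FPKM in re-fed control livers, 8.15 and 9.24 FPKM in fasted LMKO livers and 7.06 and 7.61 FPKM in fasted control livers. Its log2 fold change was -0.26 over both genotypes (SE 0.0807, adjusted p = 0.0308) and -0.46 in LMKO mice (adjusted p = 0.0195). For each of these receptors the call over both genotypes was kept only without re-fed control replicate 1 or fasted LMKO replicate 1, with an adjusted p of up to 0.0908 for Nr3c1 and 0.096 for Thrb in the others.

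The retinoic acid receptor Rara passed in control mice only when each genotype was tested alone. It had 4.21 and 5.26 FPKM in re-fed LMKO livers, 5.63 and 6.17 FPKM in re-fed control livers, 5.69 and 4.79 FPKM in fasted LMKO livers and 3.53 and 3.43 FPKM in fasted control livers. The fasted control libraries were the lowest of all 8. In control mice the log2 fold change was 0.62 (SE 0.135, limma adjusted p = 0.0162), against -0.13 in LMKO mice (adjusted p = 0.489), and the call in controls was lost without re-fed or fasted control replicate 2 (adjusted p up to 0.0728). The remaining receptors of this class did not pass in any re-feeding comparison. Thra lay between 2.65 and 5.17 FPKM, Esr1 between 1.82 and 4.27, Nr3c2 between 1.61 and 3.55, Rarb between 1.25 and 4.05 and Rarg between 1.25 and 1.80 FPKM.

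**Figure D3:**
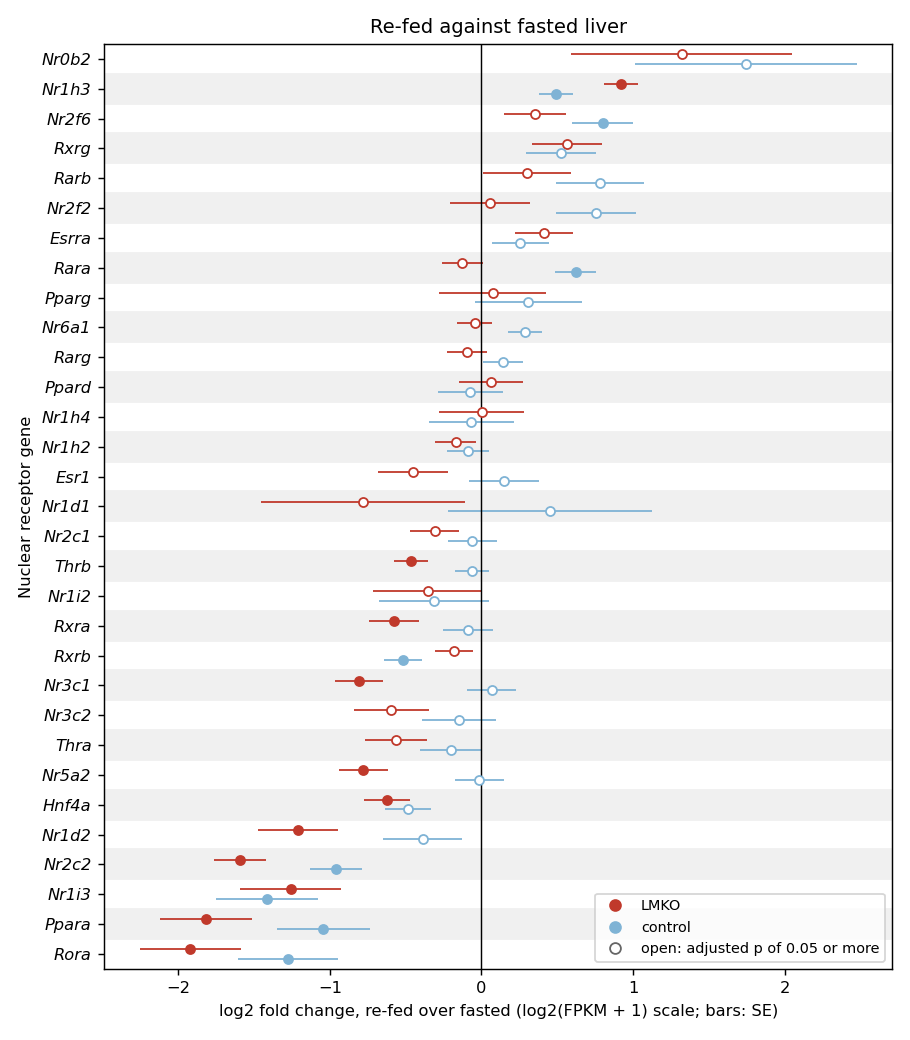
Log2 fold change, re-fed over fasted, of the 31 receptor genes in LMKO and control mice (log2(FPKM + 1) scale; bars, SE; filled points, adjusted p under 0.05). Nr1h3 is filled to the right of 0 in each genotype, and Nr1i3, Nr2c2, Ppara and Rora are filled to the left in each.

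Removing the trend on transcript length left 9 of these 15 re-feeding calls over both genotypes. These were Hnf4a, Nr1d2, Nr1h3, Nr1i3, Nr2c2, Nr2f6, Ppara, Rora and Rxrb. In that order their log2 fold changes were -0.44, -0.67, 0.53, -1.37, -0.97, 0.44, -1.41, -1.165 and -0.42 with the trend removed. The 6 that no longer passed were Nr0b2, Nr3c1, Nr5a2, Rxra, Rxrg and Thrb. Nr1h2 (-0.30, SE 0.086, adjusted p = 0.0287), Nr6a1 (0.36, SE 0.0781, adjusted p = 0.0105) and Thra (-0.48, SE 0.146, adjusted p = 0.0348) passed with the trend removed and not in the fit reported. The first 8 of the 9 also passed in each of the 8 fits that left out 1 library.

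Tested alone, Hnf4a, Nr1d2, Nr3c1, Nr5a2, Rxra and Thrb passed in LMKO mice and not in control mice. Nr2f6, Rara and Rxrb passed in control mice and not in LMKO mice. Nr1d2 changed by -1.21 (SE 0.261, limma adjusted p = 0.0124) in LMKO mice and by -0.39 (adjusted p = 0.287) in control mice, and Rxra by -0.58 (adjusted p = 0.0314) and -0.09 (adjusted p = 0.704). Nr2f6 changed by 0.35 (adjusted p = 0.206) in LMKO mice and 0.80 (SE 0.202, adjusted p = 0.0254) in control mice, and Rxrb by -0.18 (adjusted p = 0.278) and -0.52 (SE 0.124, adjusted p = 0.0215). A receptor that passed in 1 genotype alone is not shown to differ between them, since none passed the test of the difference below. In LMKO mice the calls were lost without re-fed LMKO replicate 1 for Hnf4a, Nr1d2, Nr5a2, Rxra and Thrb, without re-fed LMKO replicate 2 for Hnf4a, Nr3c1, Rxra and Thrb, without fasted LMKO replicate 1 for Hnf4a, Nr5a2 and Rxra, and without fasted LMKO replicate 2 for Nr1d2, Rxra and Thrb (adjusted p up to 0.137). In control mice Nr2f6 and Rxrb lost theirs without either re-fed control library or fasted control replicate 2 (adjusted p up to 0.124).

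Whether loss of Med23 changed receptor transcripts was tested in each feeding state and over both. No receptor passed in any of the 3 genotype comparisons. Over both states 0.313% of all loci passed, in fasted livers 0.166% and in re-fed livers 0.101%. At an unadjusted limma p under 0.05 there were 2 of 31 receptors over both states, against 1646 of all loci (15.1%). In fasted livers there were 3 against 1342 (12.4%) and in re-fed livers 4 against 1269 (11.7%). No other tool was run.

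Over both states, the smallest p among receptors belonged to Nr1h3 (log2 fold change 0.39, SE 0.0791, limma adjusted p = 0.128), Nr2c1 (-0.34, SE 0.115, adjusted p = 0.255) and Nr5a2 (0.23, adjusted p = 0.388). Nr1h3 was higher in LMKO livers without overlap in each state. In re-fed livers its log2 fold change was 0.60 (SE 0.112, adjusted p = 0.235, and between 0.174 and 0.648 over the alternatives). Nr2c1, which encodes the orphan receptor TR2, had 2.52 and 2.63 FPKM in re-fed LMKO livers, 4.46 and 3.42 FPKM in re-fed control livers, 3.91 and 2.98 FPKM in fasted LMKO livers and 3.75 and 4.54 FPKM in fasted control livers. Its LMKO libraries were lower after re-feeding (-0.46, adjusted p = 0.379) and overlapped the controls after fasting. Rxra was also lower in re-fed LMKO livers without overlap (-0.46, SE 0.164, adjusted p = 0.379).

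In fasted livers the smallest p belonged to Nr5a2 (log2 fold change 0.61, SE 0.161, limma adjusted p = 0.22), Rara (0.47, SE 0.135, adjusted p = 0.25) and Nr3c1 (0.56, SE 0.161, adjusted p = 0.253). In each of these the fasted LMKO libraries lay above the fasted control libraries. Of the 31 receptors, 12 were higher and 1 was lower in fasted LMKO livers without overlap, against 33.0% and 12.8% of all loci (45.8% in either direction). In re-fed livers 2 were higher and 12 lower in LMKO without overlap, against 25.6% and 19.4% of all loci (45.0% in either direction).

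**Figure D4:**
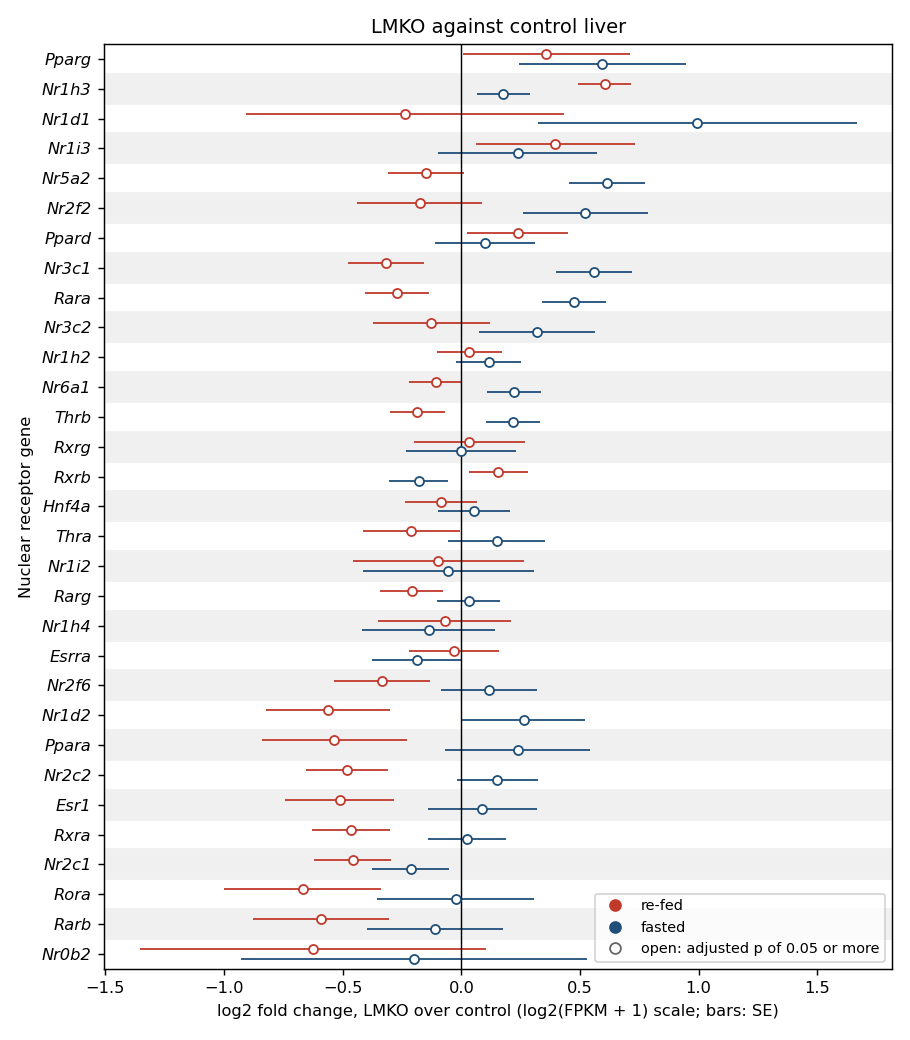
Log2 fold change, LMKO over control, of the 31 receptor genes in re-fed and fasted livers (log2(FPKM + 1) scale; bars, SE; open points, adjusted p of 0.05 or more). All points are open; 24 of 31 re-fed points lie left of 0 and 22 of 31 fasted points lie right of it.

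The median receptor stood lower in LMKO than in control livers after re-feeding, at a log2 fold change of -0.19, with 24 of 31 below 0. Over all loci that median was 0.01, with 48.5% below 0. The re-fed receptor median was -0.125, with 21 of 31 below 0, without re-fed control replicate 1 and also without re-fed LMKO replicate 1. It was -0.20 without re-fed LMKO replicate 2 and -0.25 without re-fed control replicate 2. With the trend on transcript length removed it was -0.14, with 26 of 31 below 0. After fasting the receptor median was 0.12, with 22 of 31 above 0 and 9 below, beside a median of 0.08 over all loci and 35.1% below 0. The fasted receptor median was 0.07, with 19 of 31 above 0, without fasted LMKO replicate 1, and 0.19 without fasted LMKO replicate 2. With median-ratio scaling it was 0.04 (0.0 over all loci) and with quantile normalization 0.05 (0.02 over all loci). Nr2c2, Nr3c1, Rara and Thrb were above control in fasted LMKO livers and below it in re-fed LMKO livers, with no overlap in either state, a pattern of 5.61% of all loci. Rxrb alone had the reverse pattern, against 2.0% of all loci. These shares are descriptions of 2 libraries per group.

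The difference between the re-feeding responses of LMKO and control mice, the interaction, passed for no receptor and for 0.0368% of all loci. An unadjusted limma p under 0.05 was found in 6 of 31 receptors, against 1016 of all loci (9.35%). The smallest p belonged to Rara (-0.75, SE 0.191, adjusted p = 0.481), Nr3c1 (-0.87, SE 0.227, adjusted p = 0.485) and Nr5a2 (-0.76, SE 0.228, adjusted p = 0.507). In Nr3c1 and Nr5a2 re-fed livers were lower than fasted ones in LMKO mice and nearly level in control mice, and in Rara they were higher in control mice. The interaction was negative in 24 of 31 receptors, with a median of -0.40, while 58.1% of all loci were negative with a median of -0.06. Without re-fed control replicate 1, the library that stood apart by transcript length, the receptor median was -0.28 with 22 of 31 negative. Without fasted LMKO replicate 1 it was -0.26, also with 22 negative. With the trend on transcript length removed it was -0.37 with 25 negative.

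The 5 receptors that did not pass the filter were low in every library. Nr4a1, an orphan receptor induced by hormones and stress, lay between 0.307 and 0.891 FPKM, and Esrrg between 0.116 and 1.15 FPKM with 1 library above 1. Nr2f1 reached 0.309 FPKM, Nr4a2 0.196 FPKM and the vitamin D receptor Vdr 0.0619 FPKM, with Vdr listed at 0 in fasted LMKO replicate 2. No test was made on these.

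Receptors act through coregulators, and most coregulator transcripts were lower after re-feeding. Of 23 coactivator and corepressor genes tested over both genotypes, 2 rose and 17 fell (limma adjusted p under 0.05). Of all loci, 32.4% rose and 20.6% fell. The median log2 fold change was -0.56 over these genes and 0.10 over all loci. With the trend on transcript length removed, 3 rose and 14 fell, with a median of -0.36. Ppargc1a (PGC-1-alpha), a fasting-induced coactivator of PPAR-alpha, HNF4-alpha and the glucocorticoid receptor, averaged 1.60 ± 0.271 FPKM in re-fed livers and 4.96 ± 1.95 FPKM in fasted livers (SD, n = 4 each; log2 fold change -1.14, adjusted p = 0.000194). Lpin1, whose product also acts as a coactivator, averaged 8.83 ± 5.23 FPKM in re-fed livers and 134.4 ± 90.9 FPKM in fasted livers (-3.58, adjusted p = 0.000578). Ncoa2, a coactivator of many receptors, averaged 5.31 ± 0.992 FPKM in re-fed livers and 9.99 ± 0.48 FPKM in fasted livers (-0.81, adjusted p = 0.000594). No coregulator passed between genotypes. Ppargc1a was at -0.54 over both states (SE 0.0752, limma adjusted p = 0.0567) and at -0.84 in fasted livers (SE 0.106, adjusted p = 0.0541).

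Lists of genes known to be controlled by the receptors were counted in the same fit, beside 32.4% of all loci that rose and 20.6% that fell (53.1% in either direction) and their median log2 fold change of 0.10. Of 22 PPAR-alpha target genes, 1 rose and 18 fell after re-feeding, with a median log2 fold change of -1.32. Vnn1 averaged 5.46 ± 0.646 FPKM in re-fed livers and 62.7 ± 19.9 FPKM in fasted livers (SD, n = 4 each; -3.26, limma adjusted p = 0.000198). Cyp4a10, a fatty acid hydroxylase, changed by -3.12, although reads of near-identical Cyp4a genes may be split between copies.

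Of 15 glucocorticoid receptor target genes, none rose and 11 fell over both genotypes, with a median of -1.43. Within LMKO mice 2 rose and 7 fell, beside 23.2% and 16.3% of all loci. Within control mice none rose and 9 fell, beside 22.8% and 10.5% of all loci. The values that follow are over both genotypes. Mt2 changed by -7.00, Igfbp1 by -5.91 and Pck1, the rate-limiting enzyme of glucose synthesis, by -2.25. Of 12 LXR target genes 2 rose and 7 fell, with a median of -0.36, while Nr1h3 itself rose. Mylip (-1.55) and Abcg8 (-1.41), a degrader of the LDL receptor and a sterol exporter, fell, and the fatty acid synthase Fasn rose (2.66). Of 15 CAR and PXR target genes 7 rose and 3 fell, with a median of 1.17 (0.48 without fasted LMKO replicate 1), while Nr1i3 fell. Cyp1a2 averaged 834.1 ± 177 FPKM in re-fed livers and 152.8 ± 50.8 FPKM in fasted livers (SD, n = 4 each; 2.48, limma adjusted p = 0.000223), and Gstm1 (1.63) and Cyp2c55 (3.94) also rose, both of gene families with similar copies.

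**Figure D5:**
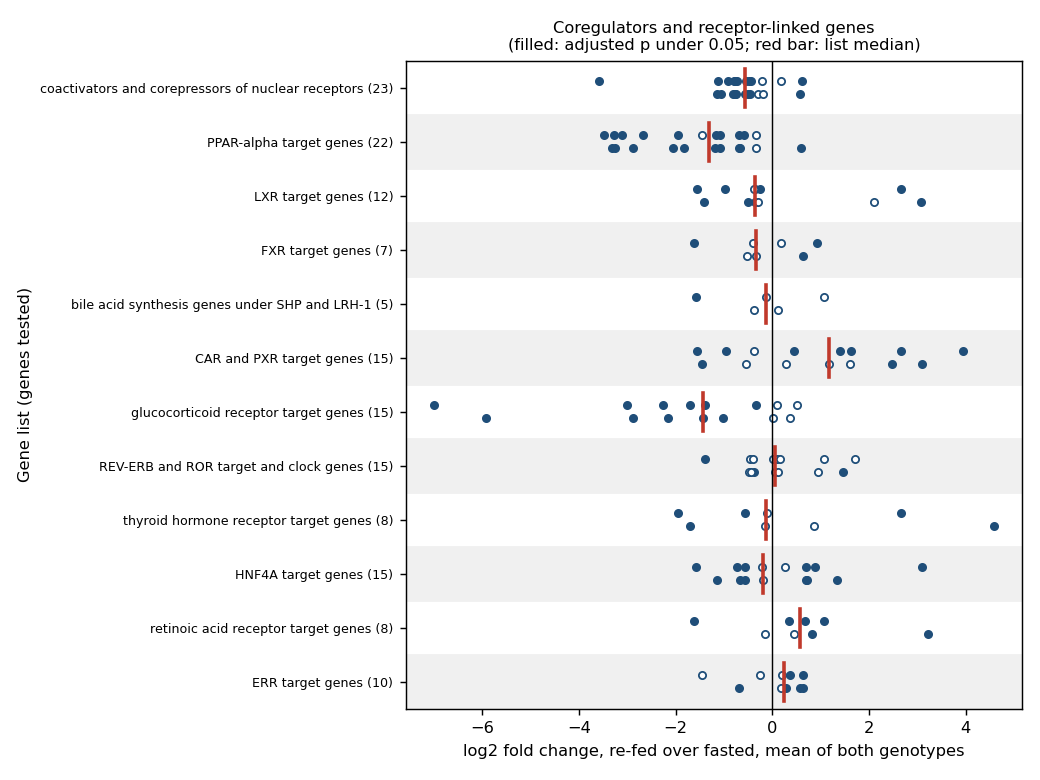
Log2 fold change, re-fed over fasted (mean of both genotypes), of the genes in 12 lists of coregulators and receptor-linked genes; each point is 1 gene, filled where the adjusted p was under 0.05, and the red bar is the list median. The medians lie at -0.56 for coregulators, -1.32 for PPAR-alpha targets, -1.43 for glucocorticoid receptor targets and 1.17 for CAR and PXR targets.

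The other lists were mixed, and several had a share of called genes near the 53.1% of all loci (32.4% higher, 20.6% lower). Of 7 FXR target genes 2 rose and 1 fell, among them the bile salt export pump Abcb11 (0.93) and the phospholipid transporter Abcb4 (-1.61). With quantile normalization 1 FXR target rose and 4 fell, and without fasted control replicate 2, 2 rose and 3 fell. Of 5 bile acid synthesis genes only Cyp8b1 passed, at 142.9 ± 32.3 FPKM in re-fed livers and 484.6 ± 248 FPKM in fasted livers (SD, n = 4 each; log2 fold change -1.58, limma adjusted p = 0.00519), while with quantile normalization 3 of the 5 fell. Of 15 HNF4-alpha target genes 6 rose and 6 fell, of 8 thyroid hormone receptor targets 2 rose and 3 fell, and of 15 clock and REV-ERB or ROR targets 1 rose (Bhlhe40, 1.45) and 2 fell (Per1, -1.39, and Hlf, -0.38). With median-ratio scaling 4 of the clock list fell. Of 8 retinoic acid receptor targets 5 rose and 1 fell, and with quantile normalization 3 rose and 1 fell. Cyp26a1, which degrades retinoic acid, averaged 18.9 ± 1.1 FPKM in re-fed LMKO livers, 76.5 ± 11.5 FPKM in re-fed control livers, 4.42 ± 1.67 FPKM in fasted LMKO livers and 2.65 ± 2.16 FPKM in fasted control livers (SD, n = 2 each), a re-feeding change of 3.22 (limma adjusted p = 0.000392). Of 10 ERR targets 5 rose and 1 fell, with Sdhb (0.57), Cycs (0.63) and Cox5b (0.63) among the rises, but with the trend on transcript length removed 1 rose and 1 fell, and with quantile normalization none rose and 2 fell.

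Between genotypes over both states, Pck1 and Rarres1 were among the genes of these lists that passed, and each was lower in LMKO. Counted by list, 2 of 8 retinoic acid receptor targets and 1 of 15 glucocorticoid receptor targets passed, all lower in LMKO. No gene of the other lists passed, and 0.313% of all loci did. Pck1 averaged 215.4 ± 13.4 FPKM in re-fed LMKO livers, 374.3 ± 31.4 FPKM in re-fed control livers, 839.5 ± 22.3 FPKM in fasted LMKO livers and 2186 ± 82.2 FPKM in fasted control livers (SD, n = 2 each; log2 fold change -1.09, SE 0.0873, limma adjusted p = 0.00521). Rarres1, a retinoic acid responsive gene, averaged 28.6 ± 4.8 FPKM in re-fed LMKO livers, 39.7 ± 4.84 FPKM in re-fed control livers, 11.2 ± 0.484 FPKM in fasted LMKO livers and 59.2 ± 5.94 FPKM in fasted control livers (-1.38, SE 0.113, limma adjusted p = 0.00544). Each also passed in all 8 fits that left out 1 library. With the replicate number as a block within each feeding state neither passed (adjusted p = 0.0542 for Pck1 and 0.0595 for Rarres1), and with 1 block over both states each did (adjusted p = 0.0222 and 0.0239).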

How the data were processed

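Each of the 8 libraries came as a list of 23699 loci with a symbol and an FPKM value that the authors deposited. Per the submitters' processing notes, TopHat 1.4.1, SAMtools 1.4.1, Cufflinks 2.0.2 and Cuffdiff 2.0.2 were used with mm9. Scaling beyond FPKM, strand and fragments per library are not given in the sources used here, and low values did not yield a depth. A value of 0 may be a failed estimate. Files were joined by locus and symbol, and starts are printed 1-based. limma 3.58.1 (R 4.3.3) was fitted to log2(FPKM + 1) of 10865 loci with at least 1 FPKM in at least 2 libraries, with 4 group means, eBayes with trend, two-sided tests, and Benjamini-Hochberg adjustment over all loci, with a threshold of 0.05. The model was tested on simulated data. That scale understates changes of low genes. The design text counts 2 mice per group. The p-values set differences of group means against a spread shared by the 4 groups and moderated over all loci. They rest on these few libraries. Fully described were receptors that passed a comparison, in comparisons with none the 3 with the smallest p, and up to 12 others chosen by level or class. From each list up to 3 genes with the smallest p were named. Some genes that this rule takes are not reported here. Members and lists were chosen with earlier results of these data known. Alternatives were pseudocounts of 0.1 and 0.5, no filter, at least 5 FPKM, median-ratio scaling, quantile normalization, the length trend removed, eBayes without trend, a replicate block within each state or, added after seeing the data, across both, fits of the 4 libraries compared, and leaving out each library.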

Additional observations from a re-analysis of the deposited data

How the results depend on the processing

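The alternatives were followed for 46 receptor results, those that passed and, in comparisons where none passed, the 3 with the smallest p. None of their 847 values turned direction, 731 kept their side of the threshold and 116 lost it. All 116 belonged to results that passed in the fit reported. The results that had not passed did so under no alternative, so the 731 include values with no call to lose. Other receptor results were not followed in this way. The counts of 0 in the 3 genotype comparisons and the interaction were 0 under every alternative run. Leaving out 1 library gave between 9 and 14 receptors for re-feeding over both genotypes (15 with all libraries), between 6 and 14 in LMKO mice (11) and between 1 and 9 in control mice (8). With only the 4 control libraries the control count was 5. The replicate numbers of the labels are not stated to pair animals, and same-numbered LMKO and control libraries did not deviate together (correlation -0.008 in fasted and -0.024 in re-fed livers). With a replicate block within each feeding state, which leaves the estimates as they are and cannot remove differences between the states, the counts were 11 over both genotypes, 9 in LMKO mice and 4 in control mice. With 1 replicate block across both states, chosen after seeing the data, they were 13, 12 and 7. The shares of all loci that passed under these alternatives are not given here. A lower count therefore cannot be read as particular to the receptors. Median-ratio scaling moved the median of all loci by -0.124 and quantile normalization by -0.126 (log2) for re-feeding in controls, and leaving out the filter by -0.105. The fragments per library are unknown, so the counting error of receptors at low FPKM could not be given, and each group rests on 2 libraries.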
